A study of Mus musculus and Homo sapiens with 43 samples.

Results

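The 9 genes described here encode proteins of mouse milk: the caseins Csn1s1, Csn1s2a, Csn2 and Csn3, the whey proteins Wap and Lalba, the mucin-like Glycam1, and Btn1a1 and Xdh, 2 proteins that coat the milk fat droplet as it leaves the cell. They were chosen by symbol. All 9 were among the 23487 genes of the RiboTag table from mouse mammary tumors, whereas 2 of the 9 (Csn3 and Xdh) were measured well enough for a test in the tables of the cultured line 4T07, with 13485 tested genes for polysomes and 9833 genes for translational efficiency. The study followed leucyl-tRNA synthetase (LARS), which charges tRNA with leucine, in 43 libraries. RiboTag isolates mRNA held by ribosomes that carry an HA tag on Rpl22, a tag that appears only in cells with Cre. The tumors came from C57BL/6J mice in 2 groups of 3 libraries. Mice of the Lars Het group were Lars fl/wt and mice of the wt group Lars wt; both groups also carried rpl22HA fl/wt, MMTV-Cre+ and MMTV-PyMT+. Cre and the PyMT oncogene thus both ran from the MMTV promoter, which is active mainly in mammary epithelium, and no age of the mice was given in these sources. 4T07 is an established mouse mammary carcinoma line. It carried a control hairpin (shCtrl) or either of 2 hairpins against Lars (shLars3, shLars4). There were 18 polysome libraries, of a low-translated and a high-translated fraction, and 6 RNA-Seq libraries, with 1 pooled footprint library that carries no hairpin label. The labels do not say whether replicates were separate animals or cultures, and p-values then measure only the spread between these samples, which may be technical.

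Milk protein genes are switched on in the alveolar cells of the luminal epithelium during pregnancy and lactation. Prolactin binds its receptor, Prlr, the kinase Jak2 then phosphorylates Stat5a and Stat5b, and these enter the nucleus and bind DNA sites of the form TTCNNNGAA (N is any base; the form is its own reverse complement) near the start of casein and whey protein genes, together with glucocorticoid receptor and Elf5. Caseins pack into micelles that carry calcium, and the casein encoded by Csn3 sits on the micelle surface and keeps micelles apart. Lalba encodes alpha-lactalbumin, the partner that makes a galactosyltransferase produce lactose.

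The stretches just upstream of the start sites are shown because some members shared this Stat5 form and others lacked it. Whether it bears on the levels given below was not tested. The RefSeq promoter table (GRCm38.p6, the assembly behind mm10) held 6 of the 9: Csn1s1, Csn1s2a, Csn2, Wap, Lalba and Glycam1. In the window from 250 bases before to 50 after the start, TTCNNNGAA was found in 4 of these 6, against 8.30% of the 32851 promoters in the table. In Csn1s1 it began 100 bases before the start (position -100), in Csn2 at -93 and in Glycam1 at -145, while in Csn1s2a it lay inside the transcript, at position 21. Wap and Lalba held no match in this window, which says only that these letters are not there. For Lalba the window reached only to 98482933, and bases further upstream were not searched. The 250 bases before the start, as the promoter table places it, are given below 5′ to 3′ on the strand of the gene. Each match is in capitals. For Lalba all 250 bases lie inside the gene span used further below, 98480400 to 98482934, so the 2 sources place its start differently.
Csn1s1 (chr5:87665958-87666207, plus strand): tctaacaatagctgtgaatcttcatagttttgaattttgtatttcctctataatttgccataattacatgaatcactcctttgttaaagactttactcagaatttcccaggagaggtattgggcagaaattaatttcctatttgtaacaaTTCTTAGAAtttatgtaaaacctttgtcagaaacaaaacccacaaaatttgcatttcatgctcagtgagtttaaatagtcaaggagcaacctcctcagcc
Csn2 (chr5:87699426-87699675, minus strand): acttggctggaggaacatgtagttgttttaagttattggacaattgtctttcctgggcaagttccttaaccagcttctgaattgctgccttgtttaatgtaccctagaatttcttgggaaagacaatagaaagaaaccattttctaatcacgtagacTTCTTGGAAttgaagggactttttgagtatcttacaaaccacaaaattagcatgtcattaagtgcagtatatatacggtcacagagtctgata
Glycam1 (chr15:103565082-103565331, minus strand): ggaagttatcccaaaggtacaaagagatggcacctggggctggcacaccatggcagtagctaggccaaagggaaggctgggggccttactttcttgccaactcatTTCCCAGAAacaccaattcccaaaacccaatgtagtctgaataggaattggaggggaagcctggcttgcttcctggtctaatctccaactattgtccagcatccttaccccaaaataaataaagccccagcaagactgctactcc
Lalba (chr15:98482684-98482933, minus strand): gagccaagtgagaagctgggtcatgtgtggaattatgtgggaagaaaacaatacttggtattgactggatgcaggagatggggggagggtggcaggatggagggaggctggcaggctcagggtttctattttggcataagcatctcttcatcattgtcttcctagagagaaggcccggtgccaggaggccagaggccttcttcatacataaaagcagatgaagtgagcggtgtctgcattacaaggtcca

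In the tumors 2 of the 9 genes stood far above the rest. Csn3 (chromosome 5, 87925579 to 87932550) had a mean normalized count over the 6 libraries of 255149.7 in the authors' deposited table. That placed it second of all 23487 genes, and it made up 1.22% of the summed mean counts. Lalba (chromosome 15, 98480400 to 98482934) followed with 38500.3 in the authors' deposited table, rank 25 and 0.184% of the sum. These are shares of reads, and no transcript lengths were used here, so levels between genes are compared below per kilobase of genomic span, which counts introns too.

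The other caseins, which lie in the same cluster on chromosome 5, were read far less. In the authors' deposited table the mean count was 847.7 for Csn1s1 (rank 5303), 102.8 for Csn1s2a (rank 10830) and 61.1 for Csn2 (rank 11646). Csn2 encodes beta-casein, which is among the most abundant proteins of mouse milk. Per kilobase of genomic span, the mean normalized count was 36596 for Csn3 and 8.97 for Csn2, a ratio of 4079, and the spans of the 2 genes are close, at 6972 and 6811 bases. For Csn1s1 the same measure gave 51.8 and for Csn1s2a 7.16.

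**Figure D1:**
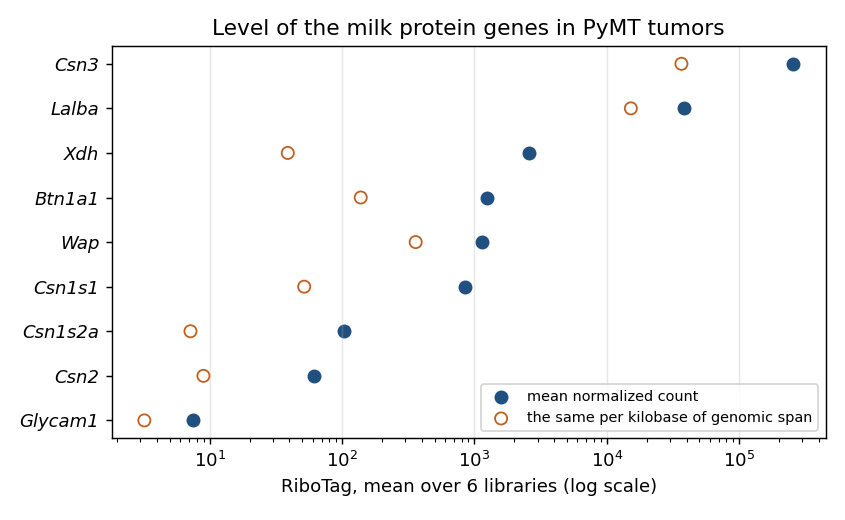
Mean normalized count of each milk protein gene over the 6 RiboTag libraries (filled points) and the same value per kilobase of genomic span (open points), on a log axis. Csn3 at 255149.7 and Lalba at 38500.3 stand apart from the other 7 genes, which lie between 7.46 and 2588.

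Wap (chromosome 11, 6635483 to 6638654), whose product whey acidic protein is a small secreted protein of rodent milk, had a mean count of 1141 in the authors' deposited table. That is 360 per kilobase of span, behind Csn3 and Lalba (15188) in that order. Glycam1 (chromosome 15, 103562759 to 103565081), a secreted mucin-like protein, was the least read member at 7.46 in the authors' deposited table. The mean count in the authors' deposited table was 1236 for Btn1a1 (butyrophilin, a membrane protein of the fat droplet coat; chromosome 13, 23456984 to 23465914) and 2588 for Xdh (xanthine dehydrogenase, which binds butyrophilin in that coat; chromosome 17, 73883895 to 73950397). Of the 9 members, 8 had a mean count of at least 10, and together the 9 made up 1.43% of the summed mean counts.

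The casein cluster spans 266 kilobases from the start of Csn1s1 to the end of Csn3, and 11 annotated genes lie wholly within it, 7 of them in the RiboTag table. Those that are not members had low mean counts in the authors' deposited table: 27.3 for Csn1s2b, the remaining casein gene, 27.7 for Odam, which encodes an enamel-associated protein, and 11.8 for Prr27. On the far side of Csn3, BC051076 stood at 1.99, Cabs1 at 0.127 and Smr3a at 26.9 in the authors' deposited table. The high count thus covered Csn3 and none of the neighbours measured on either side of it.

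**Figure D2:**
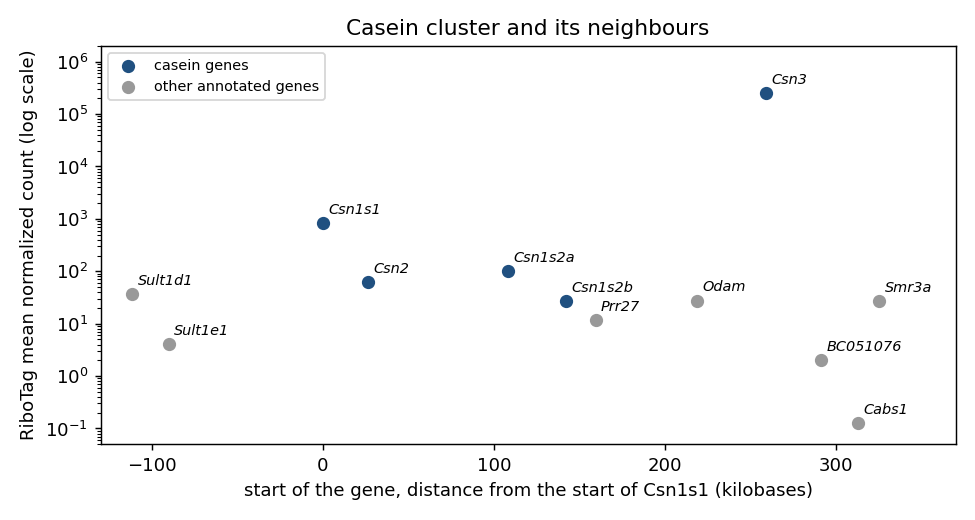
RiboTag mean normalized count (log axis) of the casein genes (blue) and the other annotated genes in and beside the cluster (grey), by distance of their start from that of Csn1s1 in kilobases. Csn3, 259 kilobases from Csn1s1, is at 255149.7, and every other gene plotted is at 847.7 or below.

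The RiboTag comparison asked which ribosome-held mRNAs differ between Lars Het and wt tumors. The authors' table does not say which genotype is the numerator, so values are given as numerator over denominator. Lars itself stood at a log2 fold change of -0.75 in the authors' deposited table, with an SE of 0.43 and an unadjusted p of 0.0807.

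No milk protein gene passed. By the DESeq2 adjusted p of the authors' deposited table (0.99995 for each member), 0 of the 9 were under 0.05, and 0% of the 23487 genes were. At an unadjusted p under 0.05 the count was 1 of 9, against 1.19% of all genes (280). The log2 change was positive for 6 and negative for 3 members, with a median of 0.15 beside -0.01 over all genes.

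The highly read caseins and whey proteins gave small values with wide intervals. Csn3 stood at -0.23 (SE 0.44) in the authors' deposited table, with a 95% interval from 0.466 to 1.56 for the ratio of numerator to denominator. Lalba stood at -0.38 (SE 0.58) in the authors' deposited table, with an interval for the ratio from 0.348 to 1.69. Both intervals thus hold equal levels as well as a fall to 0.5 times the denominator level.

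Wap had the lowest value of the members, -0.81 (SE 0.68) in the authors' deposited table, with an interval for the ratio from 0.227 to 1.43. Csn1s1 stood at 0.14 (SE 0.59) in the authors' deposited table, with an interval from 0.496 to 2.45. Among the fat droplet genes, Xdh stood at 0.25 (SE 0.52) in the authors' deposited table, with an interval from 0.588 to 2.41.

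Btn1a1 was the 1 member whose 95% interval did not hold 0. It stood at 1.39 (SE 0.59) in the authors' deposited table, a 2.62-fold higher level in the numerator, with an interval for the ratio from 1.17 to 5.88. Its unadjusted p was 0.0192 and its DESeq2 adjusted p 0.99995 in the authors' deposited table, so it did not pass over all genes. Markers of basal and myoepithelial cells lay on the same side: all 10 listed genes were positive, 6 of them at an unadjusted p under 0.05, against 0.869% of all genes on the positive side, with a median of 1.39 and a summed mean count of 20408. Some other lists leaned the same way: 7 of 7 erythroid markers were positive (4 at an unadjusted p under 0.05), 7 of 8 neutrophil markers (3), 10 of 10 macrophage markers (0), 13 of 16 luminal markers (1), 8 of 10 adipocyte markers (0) and 7 of 9 fibroblast markers (1). Others did not: 4 of 8 B and plasma cell markers were positive (1, with 1 on the negative side), 3 of 7 skeletal muscle (0), 2 of 8 endothelial (0) and 2 of 10 T and NK cell markers (0). The part of any of these cell types in the Btn1a1 value was not tested.

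**Figure D3:**
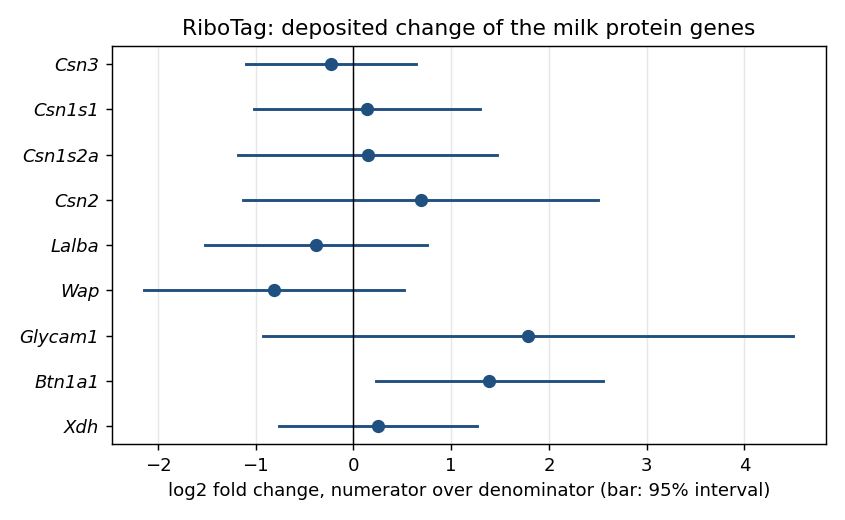
Deposited log2 fold change (point) and 95% interval (bar) of each milk protein gene in the RiboTag comparison, as numerator over denominator. The intervals of 8 genes cross 0; that of Btn1a1 does not, and the widest belongs to Glycam1.

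The deposited SE is the one measure of replicate spread in the table, and for most members it was large for their count. Among genes with a mean count within 2-fold of their own, the SE of Wap was higher than that of 98.7%, that of Btn1a1 than 96.5%, that of Csn2 than 96.2% and that of Csn1s1 than 94.8%. For Lalba, with 88 such genes, the value was 87.5%, for Xdh 86.4% and for Csn1s2a 77.7%. Glycam1 stood at 43.2%, and Csn3 had 4 genes within 2-fold, too few to place it. In all, 7 of the 8 members with at least 50 such genes lay above the 75th percentile.

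For the members of lowest count, the reads of each library could be read back from the deposited mean, which is a sum of whole reads, each divided by its library's size factor. Fits to 150 other genes read back in the same way returned the deposited log2 change within 0.001 for 148 under a model that joins the 6 libraries in 3 pairs, 1 of each group per pair, and for 1 under a model without pairs. The deposited change is thus an average within pairs, here called A, B and C. Which mouse or genotype each library is remains unknown.

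Most of the Csn2 count came from 1 library. Its normalized count was 1.53, 5.09 and 286 in the denominator libraries of pairs A, B and C, from 2, 6 and 307 reads. In the numerator libraries it was 14.6, 15.9 and 43.7, from 17, 7 and 55 reads. The denominator library of pair C held 78.0% of the summed counts, and the groups overlapped, with the lowest and the highest library both in the denominator.

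Within pairs, Csn2 was higher in the numerator in 2 of 3. The log2 ratio was 3.26 in pair A and 1.64 in pair B, but -2.71 in pair C. The deposited change of 0.69 (SE 0.93 in the authors' deposited table) therefore has the opposite sign to the ratio of the group means, 24.7 over 97.5, which is -1.98 on the log2 scale. Fitted without pairs, the log2 change was -1.96, and without pair C it was 2.40, so neither direction held across these settings. A Wald approximation put both refitted values under an unadjusted threshold of 0.05, in opposite directions, but it takes the dispersion of the paired model as given, and these refits are given as values with no test.

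Csn1s2a, the gamma-casein gene of the same cluster, followed a similar order. Its normalized count was 15.3, 83.1 and 273 in the denominator and 58.5, 90.9 and 96.1 in the numerator, in the order A, B and C. The highest and the lowest library were the same 2 as for Csn2, and the groups again overlapped. The deposited change was 0.15 (SE 0.68 in the authors' deposited table), against -0.60 for the log2 ratio of the group means and -0.60 fitted without pairs.

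Csn1s2b, which is not a member but lies 141.9 kilobases from Csn1s1, had another order. Its counts were 74.1, 17.8 and 23.3 in the denominator and 9.47, 9.09 and 30.2 in the numerator, so that the denominator library of pair A, the lowest for Csn2, was here the highest. Its deposited change in the authors' deposited table was -1.17, with an SE of 0.90 and an unadjusted p of 0.193.

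Glycam1 was higher in the numerator in all 3 pairs, on few reads. Its normalized count was 2.29, 4.24 and 1.86 in the denominator, from 3, 5 and 2 reads, and 24.1, 9.09 and 3.18 in the numerator, from 28, 4 and 4 reads. The groups overlapped, since the numerator library of pair C lay below the denominator library of pair B. The deposited change in the authors' deposited table was 1.78, with an SE of 1.38 and an unadjusted p of 0.198, and it was 0.94 without pair A.

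**Figure D4:**
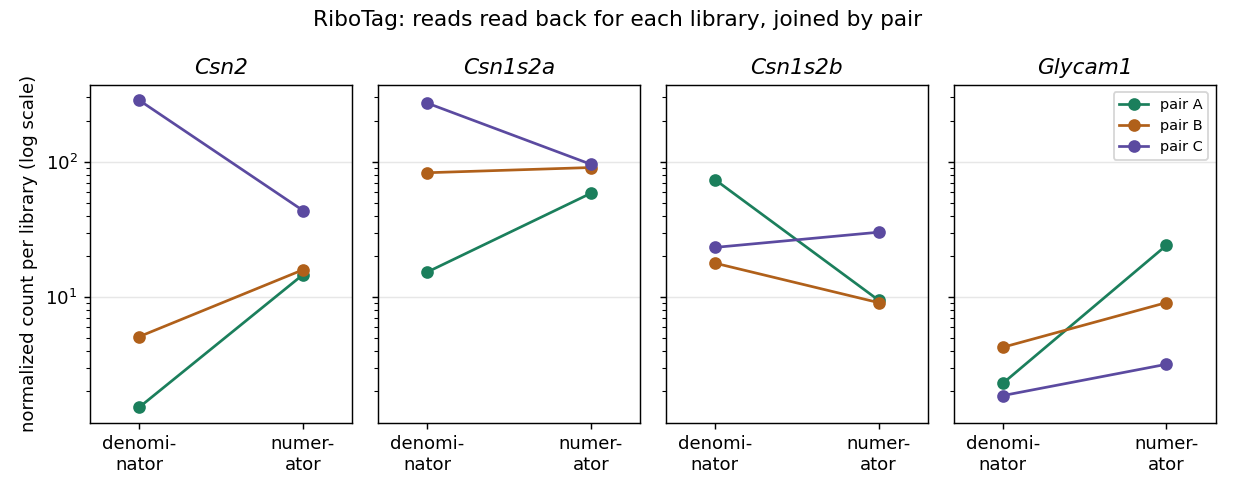
Normalized count per RiboTag library (log axis) of Csn2, Csn1s2a, Csn1s2b and Glycam1, with lines joining the denominator and numerator library of each pair. For Csn2 the denominator library of pair C is at 286 and the other 5 lie between 1.53 and 43.7; for Glycam1 all 3 lines rise.

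The genes that act above the milk genes were read in these tumors, and none passed, as was so for all 23487 genes. In the authors' deposited table the mean count was 1178 for Prlr, 1206 for Stat5a, 1573 for Stat5b and 15336 for Elf5, and their log2 changes were 0.27, 0.02, 0.19 and 0.18. Of 24 genes of prolactin signaling and alveolar regulation, 0 passed (DESeq2 adjusted p) and 0 had an unadjusted p under 0.05. Over all genes these shares were 0% and 1.19%, so the counts say little about this list. Its median was 0.08. By smallest p in each direction, Cav1, a scaffold that restrains this pathway, stood at 0.93 (unadjusted p = 0.0843) and Tnfrsf11a, the receptor RANK, at -0.51 (unadjusted p = 0.266) in the authors' deposited table.

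Other secreted milk proteins held more of the reads than the members did. The 20 listed genes summed to a mean count of 757057, led by Wfdc18 at 308080, the most read gene of the table, with Lcn2 at 164190, an iron-carrier binding protein, and Trf at 160067, transferrin, all in the authors' deposited table (these were named after their values were seen). Of the 20, 0 passed (DESeq2 adjusted p), 3 were positive and 0 negative at an unadjusted p under 0.05, against 0.869% and 0.324% of all genes, and the median was 0.42. Saa3, an acute phase protein, had a log2 change of 2.06 (SE 0.70) and Spp1, osteopontin, of 1.45 (SE 0.52) in the authors' deposited table, with unadjusted p-values of 0.00345 and 0.00484. For Trf the authors' deposited table gave -0.82 (SE 0.44), with an unadjusted p of 0.0646. Milk fat and lactose synthesis, with 30 genes, had 0 passing (DESeq2 adjusted p) and 0 at an unadjusted p under 0.05, against 0% and 1.19% of all genes. Its median was -0.01. In the authors' deposited table Fads1, a fatty acid desaturase, stood at 0.92 (unadjusted p = 0.0763) and Thrsp, a regulator of fat synthesis, at -0.55 (unadjusted p = 0.325).

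The marker lists bear on which cells gave these reads. All 16 luminal markers were read, with mean counts of at least 285 and a sum of 192883. Basal and myoepithelial markers summed to 20408, with a median log2 change of 1.39. The other lists summed to 14421 for erythroid, 13390 for macrophage, 2825 for fibroblast, 1727 for neutrophil, 1661 for B and plasma cell, 678 for adipocyte, 657 for skeletal muscle, 311 for T and NK cell and 141 for endothelial markers. The remaining medians were 0.24 for luminal, 2.88 for erythroid, 1.81 for neutrophil, 0.90 for adipocyte and 0.57 for macrophage markers. They were 0.35 for B and plasma cell, 0.32 for fibroblast, -0.11 for endothelial, -0.38 for T and NK cell and -0.40 for skeletal muscle markers. No marker passed (DESeq2 adjusted p), nor did any of the 23487 genes. These libraries are pull-downs of ribosomes tagged only in cells with Cre, and the purity of the pull-down was not tested. Fewer cells of a type, less RNA per cell and less mRNA carried over from untagged cells thus cannot be told apart. The smallest relative size factor, 0.440 against 1.07 to 1.31 for the other libraries, belonged to the numerator library of pair B.

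In 4T07 cells most milk protein genes were at or near 0. The authors' deposited polysome table lists Csn1s2a, Csn2 and Glycam1 at 0. In the authors' deposited table Csn1s1 stood at 0.0304, Wap at 0.119 and Lalba at 0.0435, means held by 53, 32 and 60 genes in all. Btn1a1 stood at 2.04 in the authors' deposited table, and none of these 7 had an adjusted p.

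Csn3 and Xdh were the members with usable counts in this line. In the authors' deposited polysome table Csn3 had a mean count of 632 (rank 6029 of 19443 genes with reads) and Xdh 1115 (rank 4118). Neither passed: in the authors' deposited table Csn3 stood at a log2 change of -1.21 (SE 0.67, 95% interval -2.52 to 0.09, DESeq2 adjusted p = 0.167) and Xdh at -0.01 (SE 0.25, 95% interval -0.50 to 0.47, DESeq2 adjusted p = 0.979). Of the 13485 genes tested, 27.9% passed, and the median was -0.12. At an unadjusted p under 0.05 the count was 0 of 2, against 37.9% of all genes. Lars itself stood at a log2 change of -0.82 (SE 0.30, DESeq2 adjusted p = 0.0285) in the authors' deposited table. Neither the direction nor the contrast is stated for this table, so these are values by side. The Lars value thus cannot be read as the size of its knockdown. Nor is it settled how many libraries the table rests on: mean counts that could be the worth of 1 read in 1 library numbered 27 where shared by at least 10 genes, 22 by at least 20 and 18 by at least 30, beside 18 labelled libraries.

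Csn3 had a high translational efficiency in 4T07, that is, many ribosome footprints for its mRNA. In control cells its log2 ratio was 3.01 in the authors' deposited table, above 99.1% of 9833 genes, with 89 genes higher. In knockdown cells it was 3.76 in the authors' deposited table, with 21 genes higher. Xdh stood at 1.45 in control and 1.28 in knockdown cells in the authors' deposited table, above 89.6% of genes in the control. These ratios are levels, not changes, and the table gives no error for them. The labels list 1 pooled footprint library with no hairpin label. The footprint replication behind these ratios, and behind the changes and p-values that follow, is thus not known.

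Neither gene passed the authors' test for a change of efficiency after Lars knockdown. For Csn3 the mRNA stood at -0.06 and the footprints at 0.69 (knockdown over control) in the authors' deposited table, the latter above 97.9% of genes, and the efficiency change at 0.75, above 98.2% of genes, had an xtail adjusted p of 0.898. For Xdh the mRNA stood at 0.16, the footprints at -0.01 and the efficiency change at -0.17 (xtail adjusted p = 0.927) in the authors' deposited table. At an unadjusted p under 0.05 the count was 0 of 2, against 6.35% of all genes. Over all genes 0.0508% passed, and the median efficiency change was -0.01. The Lars mRNA stood at -1.46 in the authors' deposited table.

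**Figure D5:**
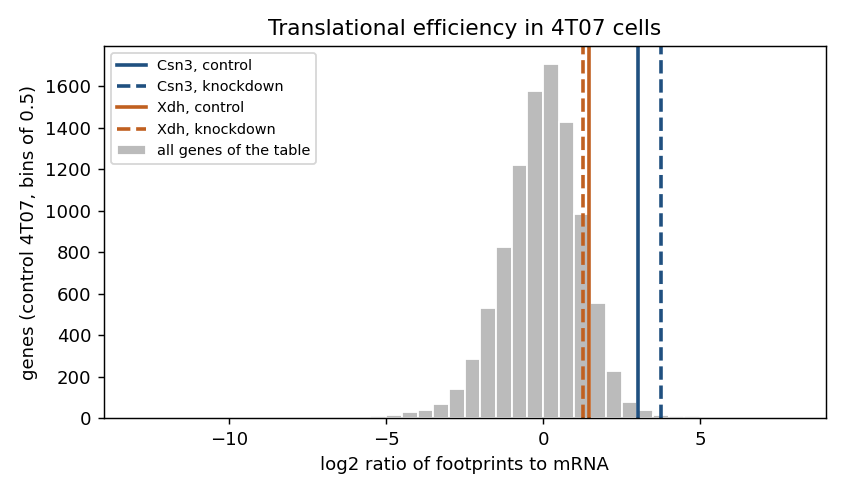
Distribution over 9833 genes of the log2 ratio of footprints to mRNA in control 4T07 cells (grey bars, bins of 0.5), with Csn3 and Xdh in control (solid lines) and Lars knockdown cells (dashed lines). Csn3 lies in the upper tail at 3.01 and 3.76, and Xdh at 1.45 and 1.28.

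Some regulators of these genes were near 0 in 4T07 as well. In the authors' deposited polysome table Prlr had a mean count of 0.0968 and Elf5 of 0.0711, while Stat5a stood at 103 and Stat5b at 411. Of 18 genes of prolactin signaling and alveolar regulation tested there, 4 passed with a negative and 0 with a positive change (DESeq2 adjusted p), against 17.5% and 10.4% of all genes. Gata3, a luminal transcription factor, stood at -0.66 (adjusted p = 0.0003) and Nfib, a factor that binds milk gene promoters, at -0.54 (adjusted p = 0.00401) in the authors' deposited DESeq2 table, and Nr3c1, the glucocorticoid receptor, at 0.44 (adjusted p = 0.0529). The medians were 0.02 for this list, -0.83 for the 10 tested genes of other milk proteins and -0.05 for the 27 of fat and lactose synthesis. Of those 10, 1 passed on the negative side. It was Fabp3, a fatty acid carrier, at -2.69 (SE 1.04, DESeq2 adjusted p = 0.0378) in the authors' deposited table. Its mean count there was only 4.54, below the minimum of 10 used elsewhere here. In the fat and lactose list 2 passed with a positive and 1 with a negative change (DESeq2 adjusted p): Gpam, of glycerolipid synthesis, at 2.52 and the desaturase gene Fads2 at 2.00, and Dgat1, of triglyceride synthesis, at -0.52 in the authors' deposited table. For efficiency, 0 of 15, 0 of 5 and 0 of 27 listed genes passed (xtail adjusted p), with medians of -0.28, -0.06 and -0.02 and 1, 1 and 2 at an unadjusted p under 0.05, against 6.35% of all genes.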

How the data were processed

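The RiboTag, polysome and translational efficiency tables were used and the tRNA tables were not. As tools of the authors, the submitters' processing notes list DESeq2, featureCounts, HTSeq, SAMtools, STAR (2.5.2a) and Bowtie2 (2.4.1). They also list mm10, and give no tool a role. RiboTag, RNA-Seq and polysome libraries were TruSeq v2 libraries, per the labels' protocols, a kit that keeps no strand. The tables are the authors' comparisons (DESeq2, or xtail for efficiency, per the file headers) and have no column per library. The deposited mean normalized count is a signal, counts divided by size factors and averaged; changes and their SE are deposited log2 values; the Wald statistic is a deposited score; p-values are as deposited. A gene passed at a deposited adjusted p under 0.05, and 95% intervals are the change with a normal interval from the SE. Of 23495 RiboTag rows, 7 with a repeated symbol and 1 without were left out, and 18 of 9851 efficiency rows whose symbol had become a date.

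Reads per library were read back, after seeing the data, for genes with a low mean count: the 6 mean counts shared by at least 100 genes give the worth of 1 read in each library, the sign of the change of such genes gives the group, and the deposited mean has about 15 digits. A solution was kept where a negative binomial fit in 3 pairs, at the dispersion that gives the deposited SE, returned the deposited change within 0.001. In 150 genes with a mean from 5 to 30, and with 7 models compared (no pairs and the 6 possible pairings), this held for 148 under the best pairing, for 18 under the next and for 1 without pairs; the labels number replicates 1 to 3 in both groups, but no source used here states the pairing. The reading back was tested on simulated data: the true reads were among the solutions in 60 of 60 genes at mean counts of 5, 15 and 30 and in 6 of 6 at 60, and were the single solution in 60, 60, 58 and 4. Csn1s2a, at a higher mean than those simulated, had 1 solution, as had Csn2 and Glycam1. Csn1s1, Btn1a1, Wap, Xdh, Lalba, Csn3 and Lars have too many reads for this.

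Named genes were the members, Lars, Prlr, Stat5a, Stat5b, Elf5, Csn1s2b, the genes between the caseins, and up to 2 per direction by smallest p from 3 related lists. Members and lists were chosen with earlier results of these data known. Transcript lengths and protein sequences were not used here, so the planned counts per transcript length and leucine contents were not computed. The versions were 1.17.1 for scipy, 2.3.3 for pandas, 2.4.6 for numpy, 3.10.9 for matplotlib and 3.11.15 for Python.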

Additional observations from a re-analysis of the deposited data

How the results depend on the processing

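Under the Benjamini-Hochberg adjustment recomputed over all rows, 0 of 9 members passed for RiboTag and 0 of 2 for polysomes and efficiency. The counts were the same under an adjusted p of 0.1. Over genes reaching a mean of 10, where counts are given, the count was 0 of 8 for RiboTag and 0 of 2 for polysomes. Glycam1 falls below that mean in RiboTag. At an unadjusted p under 0.05 it was 1 for RiboTag (Btn1a1). The RiboTag median of 0.15 became 0.14 with members of at least 10 counts and 0.14 as a weighted mean, and lay between 0.14 and 0.20 leaving out each member in turn. With 4 free bases in the Stat5 form in place of 3, the number of the 6 promoters with a match was 1 in place of 4. A replicate block of 3 pairs, inferred from the deposited RiboTag values and not from the labels, is part of the deposited values. With no replicate block, Csn2 turned to -1.96 and Csn1s2a to -0.60, and Glycam1 stood at 2.12. Leaving out pairs A, B and C in turn, Csn2 ranged from -0.76 to 2.40 (-0.13 without pair B), Csn1s2a from -0.70 to 1.02 and Glycam1 from 0.94 to 2.27. These refits were added after seeing the data and keep the dispersion of the paired model. Leaving out libraries was not possible for the other members, whose reads per library were not analysed here. Lengths of transcripts, of all exons and of coding sequence, and leucine content without the first residues, were not run. The SE limits what RiboTag could show: no member had an interval narrower than 3-fold from end to end.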
